A study of Mus musculus with 6 samples.

Results

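Splicing in male germ cells depends on RNA-binding proteins and on kinases that act on them. The 7 genes described here, chosen by gene symbol, are Ptbp1 and Ptbp2 (polypyrimidine tract-binding proteins), Khdrbs1 and Khdrbs3 (STAR family proteins), Rbm5, Srsf10 and Srpk1. All 7 were found among the 54532 genes of the deposited count table. They were compared between testes of mice lacking the long non-coding RNA gene 1700052I22Rik (KO, 3 libraries) and wild-type testes (WT, 3 libraries), in a study that asks how this RNA acts in spermatogenesis. The RNA was taken from testis tissue. The sources used here do not give strain, age, the extent of the deletion or whether each library came from a separate animal. P-values therefore measure only the spread between these libraries, which may be technical.

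Alternative splicing is unusually abundant in the testis, and many exons switch between spermatogonia, meiotic cells and spermatids. PTB proteins bind pyrimidine-rich stretches near exons and mostly repress their inclusion. STAR proteins bind short adenine- and uracil-rich motifs. SR proteins mostly promote exon inclusion and are moved and activated by phosphorylation, which SR protein kinases carry out. Read counts per gene measure how much transcript there is and cannot show which exons it contains, so splicing itself was not measured in these data.

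A regulatory exon shared by the PTB genes shows what lies out of reach of a count per gene. In cultured mouse cells PTBP1 is known to cause skipping of this exon in Ptbp2 transcripts, which are then degraded, and in human cells PTBP1 limits its own transcript through the matching exon. The sequences are shown because inclusion of this exon is the known switch between both paralogs. They are taken 5′ to 3′ from GENCODE M21 transcripts on mm10, with the exon in capitals and 20 bases of the neighbouring exons in lower case. The Ptbp1 exon lies at chr10:79862014-79862047 on the plus strand and the Ptbp2 exon at chr3:119724612-119724645 on the minus strand.
Ptbp1: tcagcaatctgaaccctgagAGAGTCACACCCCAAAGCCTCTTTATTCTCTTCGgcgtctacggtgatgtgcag
Ptbp2: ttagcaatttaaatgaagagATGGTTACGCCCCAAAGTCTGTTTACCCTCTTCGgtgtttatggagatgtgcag
Both exons are 34 bases long, are number 10 of 14 in the transcripts used (Ptbp1-216 and Ptbp2-201), and are identical at 26 of the 34 bases. Leaving the exon out shortens the reading frame to 379 residues, against 555 with it, in Ptbp1, and to 356 residues, against 532 with it, in Ptbp2. In either case the new stop lies 361 bases before the last exon junction. The annotation holds 4 Ptbp1 transcripts with the exon and 2 that skip it, and 3 Ptbp2 transcripts with it and 2 that skip it. Reads of both forms enter the same count.

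Library totals lay between 17635045 and 18117593 counts, so depth was even. The targeted transcript had 0 reads in each KO library, which allows up to 0.056 CPM (counts per 1000000 reads) over the group (3 counts of 53537734, counting error only), against 185, 175 and 218 reads in the WT libraries. Markers of testis cells were present in every library: the summed level of 12 elongating spermatid markers, among them the protamines, was 19923 to 23075 CPM in KO and 20324 to 22496 CPM in WT, and that of 13 spermatocyte markers was 1370 to 1481 CPM in KO and 1343 to 1482 CPM in WT. KO 2 and WT 1 stood apart from the other 4 libraries on the leading principal component, at 30.2 and 22.8 against -17.5 to -6.98 in the rest, so member values are also given without both.

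No change was detected for any of the 7 regulators in KO testes. Their log2 fold changes, KO over WT, lay between -0.08 for Ptbp1 and 0.08 for Srpk1, with 5 above 0 and 2 below, and a median of 0.03, where the median over all 19320 tested genes was -0.0025. All 7 passed the filter on low counts, with between 965 and 6711 reads per library. With edgeR (quasi-likelihood test, Benjamini-Hochberg adjusted over all tested genes) 0 of 7 were called (adjusted p from 0.967 to 0.995), where 0.00518% of all tested genes were called. DESeq2 and limma-voom also called 0. At an unadjusted p under 0.05 there were 0 of 7, where 4.63% of all tested genes passed. The libraries of the groups overlapped for all 7, where 9.32% of tested genes had groups that did not overlap. The 95% intervals of the fold change reached from 0.836 for Ptbp1 to 1.19 for Rbm5, and larger changes lie outside the intervals of this fit. With KO 2 and WT 1 both left out, the log2 fold changes were -0.10 for Ptbp1, 0.05 for Ptbp2, 0.0088 for Khdrbs1, -0.025 for Khdrbs3, 0.09 for Rbm5, 0.09 for Srsf10 and 0.13 for Srpk1, and 0 of 7 were called.

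**Figure D1:**
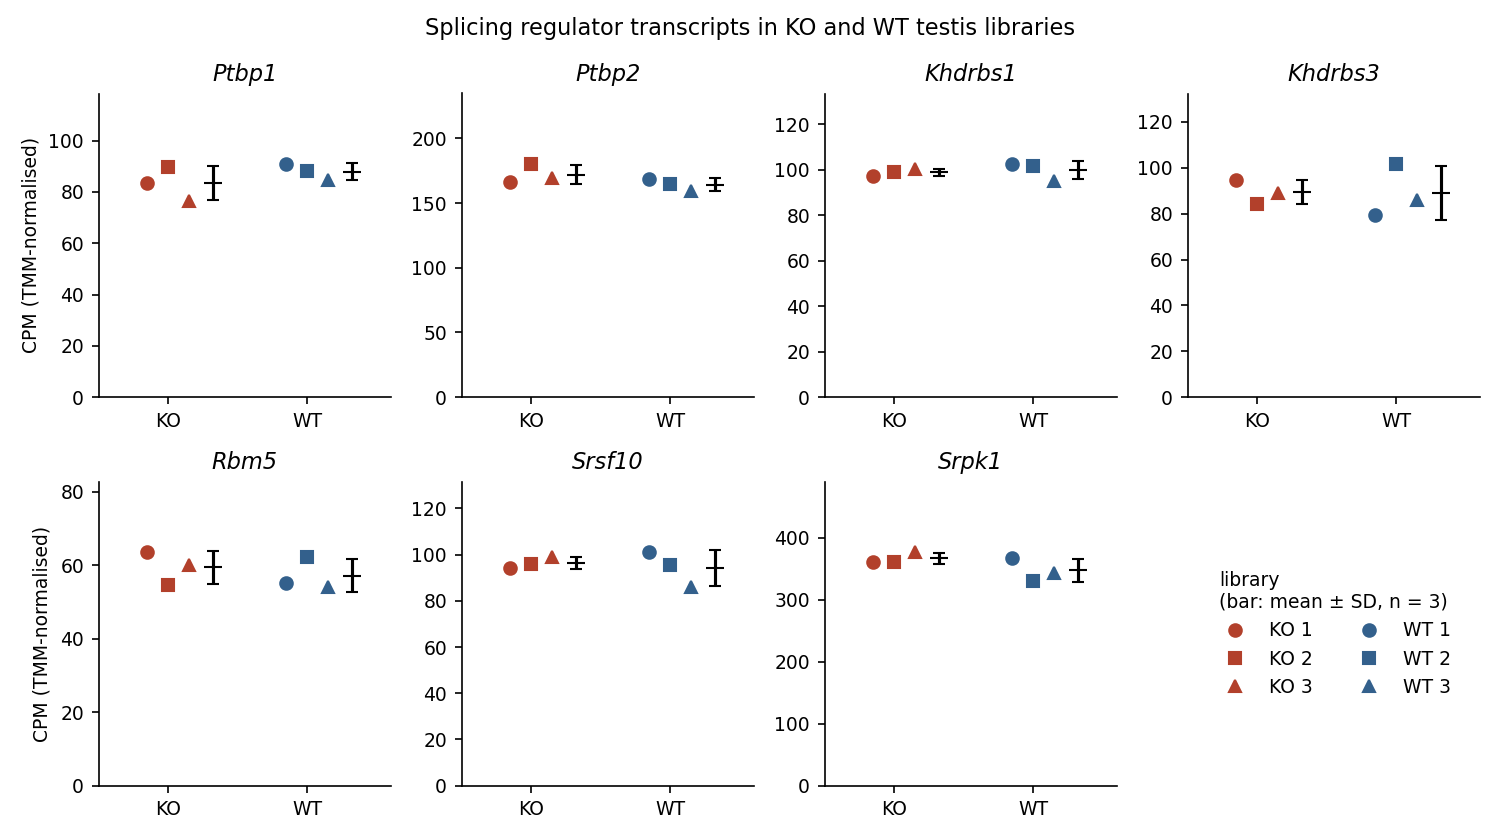
Level of each gene in every library in TMM-normalised CPM, KO left of WT, with axes that start at 0 and a bar for the mean ± SD of 3 libraries. The KO and WT libraries overlap in each of the 7 panels, and Khdrbs3 in WT is the most spread, from 79.2 to 102 CPM.

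Ptbp1 encodes the PTB protein that most dividing and somatic cells use, and in the testis it is found in spermatogonia and Sertoli cells. It lies at chr10:79854427-79864771 (plus strand, mm10). Its level was 83.5, 89.9 and 76.6 CPM (TMM-scaled) in KO 1 to KO 3, against 91.0, 88.0 and 84.5 CPM in WT 1 to WT 3. KO 3 was the lowest library and WT 1 the highest, and KO 2 lay above WT 2 and WT 3. The means were 83.3 ± 6.61 CPM in KO and 87.9 ± 3.27 CPM in WT (SD, n = 3 each), a log2 fold change of -0.08 (95% interval -0.26 to 0.11, edgeR adjusted p = 0.967). Leaving out KO 3 gave -0.02 and leaving out KO 2 gave -0.13. Ptbp1 is the one member whose annotated exons overlap those of other genes. Without regard to strand, 983 of 4740 exonic bases (20.7%) are shared with Plppr3, E130317F20Rik or Gm17134. The sources used here do not say whether counting used strand, so its reads are less certain than those of the other 6.

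Ptbp2 encodes the PTB paralog best known from neurons, which is also made in spermatocytes and spermatids. Loss of Ptbp2 in mouse germ cells is known to stop spermatid development. The gene lies at chr3:119718742-119784466 (minus strand). Its level was 166, 181 and 169 CPM in the KO libraries, against 169, 164 and 159 CPM in the WT libraries. KO 2 was the highest, and all 3 KO libraries lay above the WT mean, but KO 1 was below WT 1. The means were 172 ± 7.61 CPM in KO and 164 ± 4.86 CPM in WT (SD, n = 3 each), a log2 fold change of 0.07 (95% interval -0.09 to 0.22, edgeR adjusted p = 0.967).

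The balance of both PTB paralogs was taken as the ratio of their read counts within a library, which does not depend on how libraries are scaled. It is not scaled for gene length, so its size does not say which paralog has more transcripts. Reads from the exonic bases that Ptbp1 shares with other genes may also enter it. There were 1.99, 2.01 and 2.21 Ptbp2 reads per Ptbp1 read in KO 1 to KO 3, against 1.86, 1.87 and 1.88 in WT 1 to WT 3. All 3 KO libraries lay above all 3 WT libraries. The log2 ratio was 1.05 ± 0.0842 in KO and 0.90 ± 0.0111 in WT (SD, n = 3 each), a difference of 0.14. The WT SD understates the noise, because counting error alone is 2.56% for Ptbp1 and 1.82% for Ptbp2, above the spread of the WT ratios. A two-sided exact permutation test gave p = 0.1, the smallest that 3 against 3 libraries allow, and 0.15 after Benjamini-Hochberg adjustment over the 3 ratios computed. No ratio could pass the threshold at this group size, so this test cannot decide whether the balance differs between KO and WT. Groups that did not overlap were also found for 9.32% of single tested genes. With each library left out in turn the difference lay between 0.096 without KO 3 and 0.17 without KO 1. It was 0.16 without KO 2 and WT 1 together. Because the groups did not overlap, leaving libraries out could not turn its direction, so these values show only how its size varied.

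**Figure D2:**
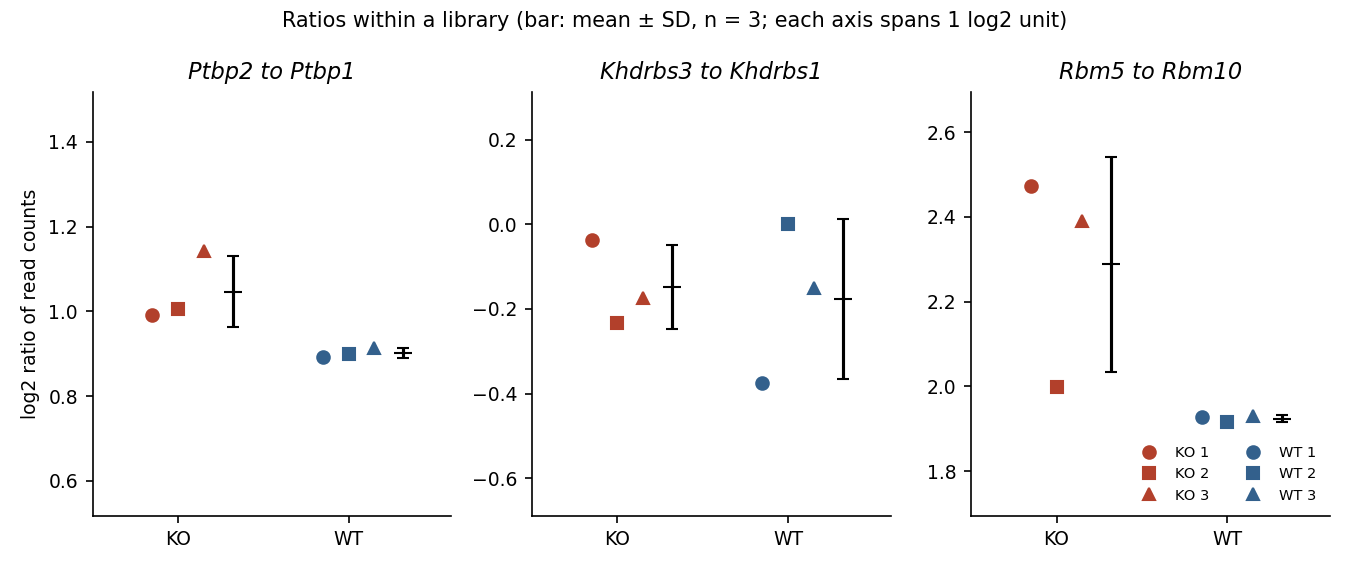
Log2 ratio of the read counts of related genes within each library, KO left of WT, with the mean ± SD of 3 libraries; each axis spans 1 log2 unit. The KO libraries lie above the WT libraries for Ptbp2 to Ptbp1 and for Rbm5 to Rbm10, and the groups overlap for Khdrbs3 to Khdrbs1.

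Khdrbs1 encodes SAM68, which regulates splicing in germ cells and, in mouse spermatids, the use of stored transcripts; male mice without it are infertile. The gene lies at chr4:129703164-129742303 (minus strand). It was the steadiest of the 7, at 97.4, 98.9 and 100.5 CPM in the KO libraries, against 103, 102 and 95.3 CPM in the WT libraries. The KO libraries lay inside the range of the WT libraries. The means were 98.9 ± 1.55 CPM in KO and 99.98 ± 4.09 CPM in WT (SD, n = 3 each), a log2 fold change of -0.02 (95% interval -0.18 to 0.15, edgeR adjusted p = 0.991). Leaving out WT 1 turned the direction to 0.0050. The coefficient of variation in KO, 1.56%, was below the 2.37% that counting error alone gives at its mean of 1780 reads.

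Khdrbs3 encodes T-STAR, also called SLM2, a relative of SAM68 that is made in the testis and the brain. The gene lies at chr15:68928420-69101211 (plus strand). It was the most variable member, at 94.9, 84.2 and 89.0 CPM in the KO libraries, against 79.2, 102 and 85.8 CPM in the WT libraries. WT 1 and WT 2 were the lowest and the highest of the 6, with the KO libraries between them. The means were 89.4 ± 5.34 CPM in KO and 89.0 ± 11.6 CPM in WT (SD, n = 3 each), a log2 fold change of 0.01 (95% interval -0.20 to 0.22, edgeR adjusted p = 0.995). The direction turned with WT 1 (-0.070), KO 1 (-0.037) or WT 3 (-0.018) left out. The coefficient of variation was 5.98% in KO and 13.1% in WT, against 2.50% from counting error.

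The ratio of Khdrbs3 to Khdrbs1 reads was 0.974, 0.851 and 0.886 in the KO libraries, against 0.771, 1.0 and 0.901 in the WT libraries. The groups overlapped, and the log2 ratios differed by 0.03 (-0.15 ± 0.0996 in KO and -0.18 ± 0.189 in WT, SD, n = 3 each; exact permutation p = 1). This difference turned to -0.07 without WT 1, to -0.028 without KO 1 and to -0.031 without KO 2 and WT 1 together. The third gene of this family, Khdrbs2, was scarce and not tested, with 6, 2 and 10 reads in KO and 3, 5 and 1 in WT.

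Rbm5 encodes an RNA-binding protein that acts on exon choice in the early spliceosome, and a point mutation of Rbm5 in mice is known to block spermatid differentiation. The gene lies at chr9:107740371-107770996 (minus strand). It drew the fewest reads of the 7, at 63.6, 54.8 and 60.1 CPM in the KO libraries, against 55.1, 62.3 and 54.2 CPM in the WT libraries. KO 1 and WT 2 were high and KO 2, WT 1 and WT 3 low, so each group held both levels. The means were 59.5 ± 4.45 CPM in KO and 57.2 ± 4.44 CPM in WT (SD, n = 3 each), a log2 fold change of 0.06 (95% interval -0.14 to 0.26, edgeR adjusted p = 0.977). Without KO 1 the log2 fold change was 0.0070, and without WT 2 it was 0.12.

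Rbm5 has a close relative on the X chromosome, Rbm10, whose protein also regulates exon choice, and a neighbour relative, Rbm6. Rbm10 had 203, 241 and 204 reads in the KO libraries, against 261, 296 and 258 in the WT libraries. All KO libraries were below all WT libraries, with a log2 fold change of -0.31 and a 95% interval of -0.59 to -0.02. Groups that did not overlap, in either direction, were found for 9.32% of all tested genes. It was past 0.05 before adjustment but did not pass over all genes (edgeR adjusted p = 0.965). There were 5.56, 4.0 and 5.24 Rbm5 reads per Rbm10 read in KO, against 3.803, 3.77 and 3.81 in WT. The log2 ratio was 2.29 ± 0.253 in KO and 1.92 ± 0.00742 in WT (SD, n = 3 each), a difference of 0.36, with the groups apart. Counting error of Rbm5 alone is 3.10% at its mean, above the spread of the WT ratios, so the WT SD understates the noise. The exact permutation test gave p = 0.1, the smallest possible, and 0.15 after adjustment over the 3 ratios. The difference was between 0.27 without KO 1 and 0.51 without KO 2, and 0.51 without KO 2 and WT 1 together. Rbm6 had 70.4 ± 4.04 CPM in KO and 67.8 ± 2.07 CPM in WT (SD, n = 3 each), a log2 fold change of 0.05 (edgeR, adjusted p = 0.976).

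Srsf10 encodes an SR-like protein whose action on exons depends on its phosphorylation, and which mouse spermatogonia need to progress into meiosis. The gene lies at chr4:135855747-135869908 (plus strand). Its level was 94.2, 96.1 and 99.1 CPM in the KO libraries, against 101, 95.7 and 86.0 CPM in the WT libraries. WT 1 and WT 3 were the highest and the lowest, and the KO libraries lay between them. The means were 96.5 ± 2.47 CPM in KO and 94.3 ± 7.67 CPM in WT (SD, n = 3 each), a log2 fold change of 0.03 (95% interval -0.15 to 0.21, edgeR adjusted p = 0.986). The direction turned to -0.03 without WT 3.

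Srpk1 encodes a kinase that phosphorylates SR proteins, and in the testis it is also known to phosphorylate protamine 1, the protein that packs spermatid DNA. The gene lies at chr17:28587648-28622709 (minus strand). It drew the most reads of the 7, at 361, 361 and 377 CPM in the KO libraries, against 368, 331 and 342 CPM in the WT libraries. All 3 KO libraries lay above the WT mean, but WT 1 exceeded KO 1 and KO 2. The means were 366 ± 8.91 CPM in KO and 347 ± 19.0 CPM in WT (SD, n = 3 each), a log2 fold change of 0.08 (95% interval -0.07 to 0.22, edgeR adjusted p = 0.967). It ranged from 0.04 (WT 2 left out) to 0.12 (WT 1 left out), and leaving out KO 2 and WT 1 together gave 0.13 (edgeR adjusted p = 0.666). Transcript levels say nothing of kinase activity or of protamine phosphorylation, which were not measured here.

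**Figure D3:**
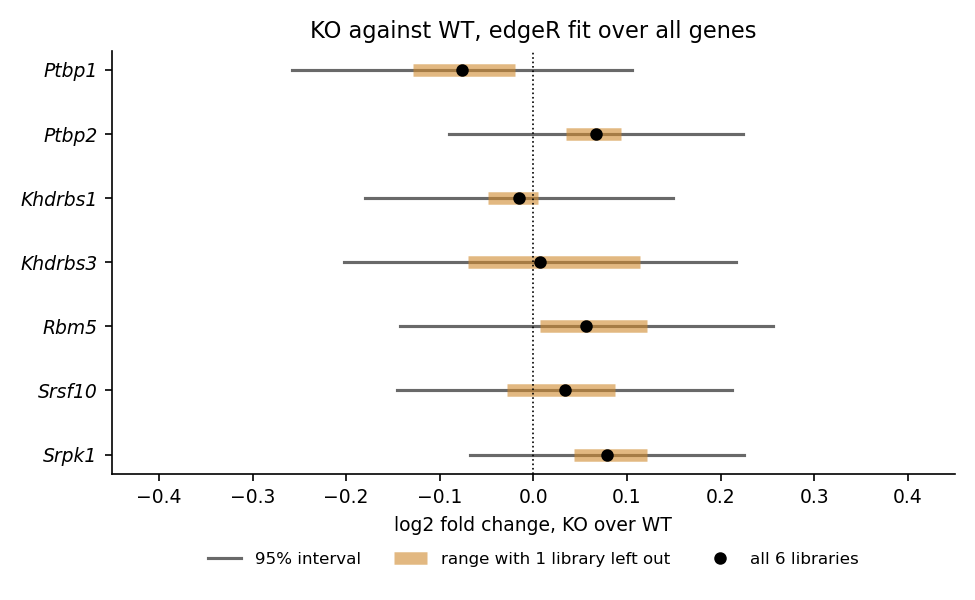
Log2 fold change of KO over WT for each gene, with its 95% interval from the fit over all genes (thin line) and the range when 1 library is left out (thick bar). Every interval includes 0, and the ranges of Khdrbs1, Khdrbs3 and Srsf10 lie on both sides of it.

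The members were all well-expressed transcripts of the testis. By CPM, which is not scaled for length, they stood between the 75.3 percentile (Rbm5) and the 96.8 percentile (Srpk1) of the 15178 tested protein-coding genes. Levels of different genes can be compared only per length, and the order then depends on the length taken. With the length in the deposited table, which equals all annotated exons of a gene in GENCODE M21, the order was Srpk1 (28.8 ± 1.37 CPM per kilobase, SD over 6 libraries), Khdrbs3 (24.3 ± 2.21), Ptbp2 (18.3 ± 0.776), Ptbp1 (18.06 ± 1.11), Khdrbs1 (15.5 ± 0.440), Srsf10 (13.6 ± 0.748) and Rbm5 (3.78 ± 0.270). Ptbp2 exceeded Ptbp1 in 3 of 6 libraries and Srpk1 exceeded Khdrbs3 in 5 of 6, so these neighbours were not separated, whereas the other neighbours were ordered alike in all 6. Rbm5 is annotated with 24 transcripts, 13 of them with a retained intron, and its exons sum to 15434 bases, against 3205 bases in its principal coding transcript.

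Per kilobase of the principal coding transcript, a length chosen after the data were seen, Rbm5 stood at 18.2 CPM per kilobase and remained the lowest. The longest principal coding transcript was taken where a gene has several. On this scale Ptbp2 had 50.0 and Ptbp1 27.5 CPM per kilobase, with Ptbp2 higher in 6 of 6 libraries. Ptbp2 exceeded Khdrbs3 in 4 of 6, and the ranges overlapped between Ptbp1 and Khdrbs1 and between Khdrbs1 and Srsf10. The other neighbours in this order had ranges that did not overlap. Srpk1 was first on both scales, at 76.6 CPM per kilobase here.

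**Figure D4:**
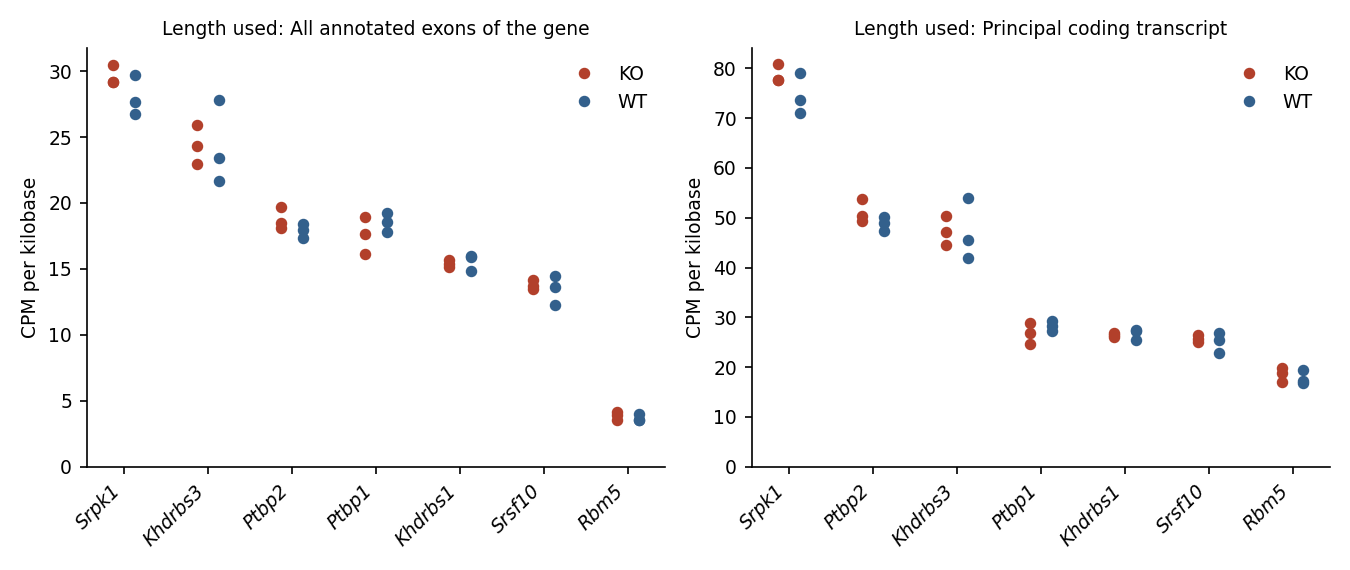
Level per kilobase of each gene in the 3 KO (left) and 3 WT (right) libraries, with the length of all annotated exons (left panel) or of the principal coding transcript (right panel), each sorted by its mean. Srpk1 is highest and Rbm5 lowest in both panels, while Ptbp2 and Ptbp1 are level in the left panel and apart in the right.

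The spread over libraries was small for every member. The ratio of the highest to the lowest library was between 1.08 for Khdrbs1 and 1.29 for Khdrbs3. The closest profiles among the members were those of Khdrbs1 and Srsf10, with a root mean square distance of 0.0448 between log2 CPM values centred on each gene's mean, and the farthest were Khdrbs3 and Srpk1, at 0.163. Among 11039 other protein-coding genes averaging 5 CPM or more, the profiles most like those of the members over the 6 libraries were Pigm and Ptpn21 for Ptbp1, Sdccag3 and Caprin1 for Ptbp2, Cmpk1 and Dedd2 for Khdrbs1, Zcchc17 and Acaa1a for Khdrbs3, Cluap1 and 2900011O08Rik for Rbm5, Wdr12 and Rpl26 for Srsf10, and Tsnaxip1 and Sort1 for Srpk1. Their distances were between 0.0085 (Sdccag3) and 0.0291 (Acaa1a). These likenesses over 6 libraries are given as a description.

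Other genes of the splicing machinery were examined as 7 lists with 117 genes, of which 110 were tested. By edgeR's quasi-likelihood test over all genes 0 of 110 were called. At an unadjusted p under 0.05 there were 6 (5.45%, against 4.63% of all tested genes), 1 with a value above 0 (Clk4) and 5 below, where 2.41% and 2.22% of all tested genes were. The groups did not overlap for 10 (9.09%, against 9.32% of all tested genes). The median log2 fold change of the 110 was -0.02.

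Among SR proteins, which bind exons and promote their use, 8 of 12 had values above 0, with a median log2 fold change of 0.02. Srsf1, the archetype of the family, had 127 ± 7.93 CPM in KO and 126 ± 12.7 CPM in WT (SD, n = 3 each). The smallest p values of the list belonged to Srsf4 (log2 fold change -0.28) and Srsf5 (0.15), both with adjusted p = 0.965 in edgeR. Among 6 tested kinases of SR proteins 4 were above 0, with a median of 0.08. Srpk2, the paralog of Srpk1, had 449, 443 and 477 CPM in KO, against 452, 409 and 427 CPM in WT, a log2 fold change of 0.09. For both SR protein kinase paralogs KO 3 was the highest library and WT 2 the lowest. Clk4, a kinase of the CLK family, had 45.6 ± 3.52 CPM in KO and 39.5 ± 1.80 CPM in WT (SD, n = 3 each; log2 fold change 0.21, edgeR adjusted p = 0.965), and Clk1 had a log2 fold change of 0.06. Srpk3, an X-linked kinase known from muscle, was not tested, with 10 reads in all.

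Relatives and cofactors of the PTB proteins were 4 of 5 above 0, with a median log2 fold change of 0.10. Ptbp3, the third PTB paralog, had 30.8 ± 2.19 CPM in KO and 28.1 ± 2.29 CPM in WT (SD, n = 3 each), a log2 fold change of 0.13 (edgeR, adjusted p = 0.967). Hnrnpll and Matr3, which encode RNA-binding proteins that act with or like PTB, had log2 fold changes of 0.11 and 0.10. Relative to the WT mean the median log2 level of the list was -0.03, 0.22 and 0.09 over KO 1 to KO 3, and -0.07 to 0.04 over the WT libraries, so KO 1 lay among the WT libraries. Of 19 STAR relatives and hnRNP proteins 9 were above 0, with a median of -0.0012. Hnrnph2 had 13.7 ± 0.361 CPM in KO and 17.3 ± 1.62 CPM in WT (SD, n = 3 each), a log2 fold change of -0.33 (edgeR, adjusted p = 0.965), and Hnrnpf had 0.11.

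The RBM family list had 6 of 11 above 0 and a median log2 fold change of 0.02. Rbmxl2, a retrogene expressed in germ cells whose protein guards against use of cryptic splice sites in meiosis, had 129, 123 and 113 CPM in KO, against 125, 168 and 135 CPM in WT. WT 2 was the highest library and KO 2 and KO 3 the lowest, while KO 1 lay above WT 1. The means were 122 ± 8.33 CPM in KO and 143 ± 22.3 CPM in WT (SD, n = 3 each), a log2 fold change of -0.23, 95% interval -0.45 to -0.01 (edgeR adjusted p = 0.965). Of 16 tested tissue-restricted regulators 9 were above 0, and the smallest p values were those of Nova1 (log2 fold change -0.62) and Mbnl3 (-0.51), both scarce at 1.54 and 2.91 CPM in KO, against 2.37 and 4.15 CPM in WT (edgeR, adjusted p = 0.965 for both).

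Genes of the core spliceosome leaned to lower values in KO by a small amount: 32 of 41 (78.0%) were below 0, where 50.7% of all tested genes were, and the median log2 fold change was -0.06. No gene of the list was called by edgeR, and 1 was past 0.05 before adjustment. Relative to the WT mean the list's median was -0.03, -0.05 and -0.10 in KO 1 to KO 3, against -0.05, 0.06 and -0.0065 in WT 1 to WT 3, so WT 1 lay at the level of KO 2 and the groups overlapped. The smallest p values were those of Snrpb, which encodes a protein of the Sm ring (61.1 ± 7.70 CPM in KO and 74.6 ± 11.6 CPM in WT, SD, n = 3 each; log2 fold change -0.29), and Snrnp70, which encodes a U1 particle protein (56.8 ± 5.27 CPM in KO and 64.3 ± 2.07 CPM in WT; log2 fold change -0.18). The edgeR adjusted p was 0.965 for both.

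**Figure D5:**
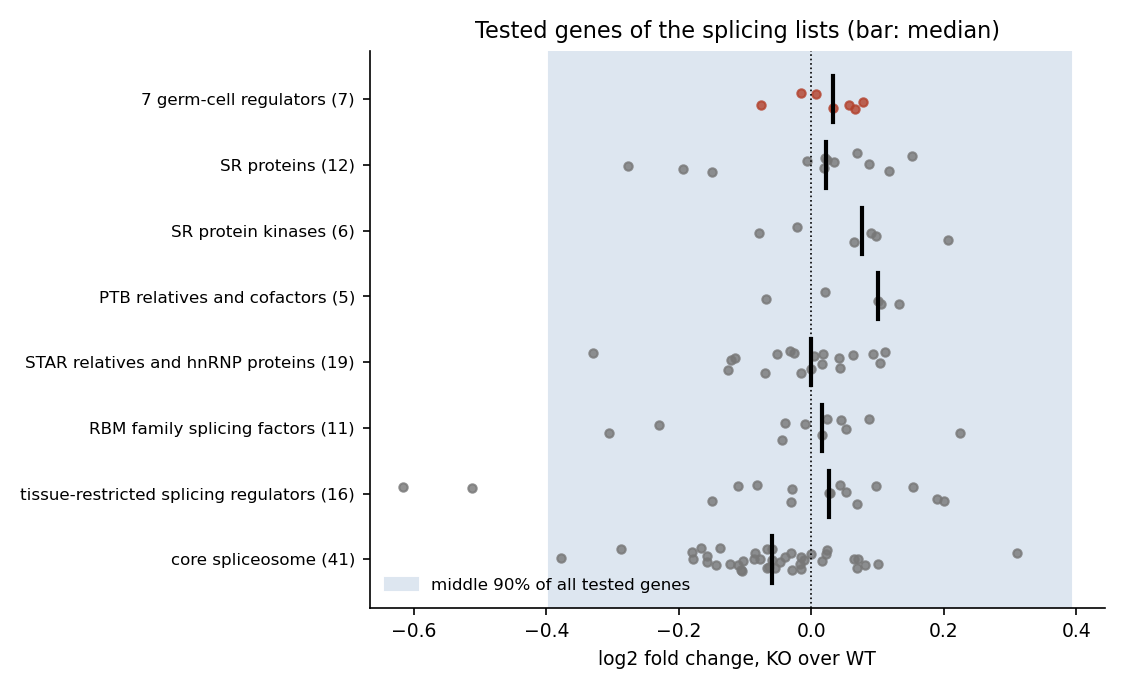
Log2 fold change of KO over WT for each tested gene of the 7 germ-cell regulators and the 7 other splicing lists, with the median as a bar and the middle 90% of all tested genes shaded (-0.40 to 0.39). The 7 regulators span -0.08 to 0.08, well inside the shaded band, and the core spliceosome list has most of its points below 0.

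Markers of the cell types that carry these transcripts were summed per library, which weighs the most abundant markers most. In whole testis fewer cells of a type and less RNA per cell cannot be told apart, and these sums do not separate them. Of the genes on the 8 marker lists 0 were called by edgeR over all genes, and 9 of 90 tested (10%) had an unadjusted p under 0.05, where 4.63% of all tested genes did. Of these 9, 8 were lower in KO (2.22% of all tested genes), 4 of them among the 10 macrophage markers, and 1 was higher in KO (2.41% of all tested genes). The 12 spermatogonial markers summed to 195 to 209 CPM in KO and 205 to 221 CPM in WT, with 8 of 12 below 0, and Etv5, a transcription factor of spermatogonial stem cells, had a log2 fold change of -0.30. The 12 Sertoli cell markers summed to 1966 to 2059 CPM in KO and 2040 to 2326 CPM in WT, with 8 of 12 below 0. Ptbp1, known from both cell types, had its lowest level in KO 3, whose sums were 201 CPM for spermatogonia and 2059 CPM for Sertoli cells, and the part of these cells in its level was not tested. The 13 round spermatid markers summed to 2385 to 2477 CPM in KO and 2220 to 2434 CPM in WT, with 10 of 13 above 0 and a median log2 fold change of 0.05. Markers of other cells varied more: the 9 Leydig cell markers summed to 338 to 737 CPM in KO and 301 to 984 CPM in WT, the 10 macrophage markers to 85.4 to 98.0 CPM in KO and 96.8 to 127 CPM in WT, and the 10 peritubular and stromal markers to 183 to 233 CPM in KO and 202 to 236 CPM in WT. All 9 Leydig and all 10 macrophage markers had log2 fold changes below 0. Beside these counts and those of the other marker lists, 50.7% of all tested genes were below 0 and 49.3% above. The macrophage sums nonetheless overlapped, with the highest KO library at 98.0 CPM and the lowest WT library at 96.8 CPM. The Leydig sum was lowest in WT 1 (301 CPM), then KO 2 (338 CPM), while KO 1 had 737 CPM, so the groups overlapped here too. Insl3, a hormone of Leydig cells, had the smallest p of its list and did not follow the sum in WT 1. It had 55.6, 17.4 and 55.0 CPM in KO, against 78.8, 83.8 and 82.6 CPM in WT, a log2 fold change of -0.94 (edgeR adjusted p = 0.965). Lyz2, a lysozyme of macrophages, had -0.42. The part of these cells in the levels of the 7 regulators was not tested. No list had a marker at 0 in all libraries.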

How the data were processed

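RNA for 3 KO and 3 WT testis libraries was isolated with TRIzol and made into libraries with a VAHTS mRNA-seq v2 kit, per the labels' protocols; HISAT2 2.0.0 and the mm10 build are named per the submitters' processing notes. The table deposited by the authors holds raw read counts for each gene and library beside gene coordinates and length, per the file header. The sources used here do not give the counting tool, annotation release or use of strand. Coordinates of the 7 genes and their lengths in the deposited table equal those of GENCODE M21.

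Genes were filtered with filterByExpr (minimum count 10, minimum total 15), scaled by TMM, and tested with edgeR 4.0.16 (glmQLFit, glmQLFTest) over all 19320 genes passing it, in R 4.3.3, with Benjamini-Hochberg adjustment and a threshold of 0.05. The procedure was also run on simulated counts, with changes larger than those of the members, and the outcome is not given here. Every pair of libraries differed by more than sampling noise (chi-square per degree of freedom of at least 4.07). Ratios used counts with 0.5 added and two-sided exact permutation tests. DESeq2 1.42.0, limma-voom (limma 3.58.1), other scalings and filters, a replicate block and left-out libraries were the alternatives. The gene names come from a rule: all members, the genes of smallest p in each list, relatives fixed by name, and the 2 closest profiles per member. The members, lists and tests were chosen with earlier results of these data known.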

Additional observations from a re-analysis of the deposited data

How the results depend on the processing

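Over 15 alternatives 0 of the 7 members were called in any, the smallest adjusted p being 0.666 for Srpk1, and 97 of 105 values kept their direction. The direction of Khdrbs3 turned with library size alone as the scaling (-0.0068) and without KO 2 and WT 1 together (-0.025), and that of Khdrbs1 in the last case (0.0088). With 1 library left out, the log2 fold changes ranged from -0.070 to 0.11 for Khdrbs3, from -0.048 to 0.0050 for Khdrbs1, from -0.028 to 0.087 for Srsf10, from -0.13 to -0.020 for Ptbp1, from 0.04 to 0.09 for Ptbp2, from 0.0070 to 0.12 for Rbm5 and from 0.04 to 0.12 for Srpk1. The Khdrbs3 to Khdrbs1 log2 ratio difference ranged from -0.073 to 0.12 and was -0.031 without KO 2 and WT 1. Over all genes, 1 was called, the target, against 50 with no low-count filter, 2 by DESeq2, 9 without KO 2 and WT 1, and 1 to 3 with 1 library left out (2 without KO 3, 3 without WT 2, 2 without WT 3). The cause was not tested. List medians with 1 library left out ranged from -0.032 to 0.071 for SR proteins (-0.038 without KO 2 and WT 1), 0.0055 to 0.12 for their kinases, -0.044 to 0.055 for the RBM family, -0.025 to 0.026 for tissue-restricted regulators, 0.04 to 0.14 for PTB relatives, -0.03 to 0.0071 for STAR relatives and hnRNP proteins, and -0.08 to -0.03 for the core spliceosome.

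Libraries with the same number in both groups did not consistently vary together (correlations of deviations -0.375, -0.0149 and 0.214 for numbers 1 to 3). These 3 values show no pairing by number but cannot exclude it. With the replicate block 1 gene and 0 members were called, and Ptbp1 had -0.08 and Srpk1 0.08. The paired differences gave a sign-flip p of 0.25 for Ptbp2 to Ptbp1 and for Rbm5 to Rbm10, the smallest that 3 pairs allow. With 3 libraries per group, permutation tests cannot reach 0.05.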
